A study of Mus musculus with 26 samples.

Results

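Ionotropic glutamate receptors are cation channels that open when glutamate binds, and they carry most of the fast excitatory signal in the brain. AMPA receptors pass the bulk of the fast synaptic current, NMDA receptors admit calcium when glutamate release coincides with depolarization, and kainate receptors tune transmitter release and excitability. In the striatum these channels sit mainly on spiny projection neurons, where axons from the cortex and thalamus release glutamate. Each channel is assembled from subunits of its own class, so the supply of each subunit bears on which channels can form.

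The subunits described here were 10 genes named by symbol: the AMPA receptor subunits Gria1, Gria2, Gria3 and Gria4, the NMDA receptor subunits Grin1, Grin2a, Grin2b and Grin3a, and the kainate receptor subunits Grik2 and Grik5. Each of 3 deposited tables was searched for them, and 7 of the 10 were listed, with 1 transcript each, in all 3. The tables, named GS, GS/DA and KO here after the mice described below, held 8576, 8576 and 9561 transcripts. Gria4, Grin2a and Grin3a were not listed in any of the 3 tables, and no value is given for them. The authors discarded transcripts with few reads, so the 7 listed subunits are those that passed their minimum.

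The study asked how LRRK2, a kinase linked to Parkinson's disease, affects translation in the mouse brain. Caudate putamen, labelled striatum, of C57BL/6 mice aged 3 months was analyzed by ribosome footprinting and RNA-Seq, with tissue of 3 male and female mice pooled per sample according to the methods. Ribosome footprinting sequences the mRNA fragments that ribosomes protect from nuclease, and RNA-Seq here measured total RNA after removal of rRNA. GS LRRK2 transgenic (TG) mice, called GS mice, carried a G2019S LRRK2 transgene with raised kinase activity, and GS/DA LRRK2 TG mice, called GS/DA mice, carried the kinase-dead form G2019S/D1994A. Both were high-copy Tet-off lines driven by CaMKII-tTA, which is active in forebrain excitatory neurons and spiny neurons, and the transgene was induced after weaning by withdrawal of doxycycline. Non-transgenic (non-TG) control mice, labelled wild-type, served both transgenic lines, so by the labels these 2 comparisons share a control group. LRRK2 knockout (KO) mice were set against wild-type (WT) mice. The labels give 3 footprinting and 3 RNA-Seq libraries of non-TG controls, 2 and 2 of each transgenic line, and 3 and 2 each of WT and KO mice.

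Each table gave 1 mean per group and assay, in reads in the coding sequence (CDS) after normalization to library size. These values are called normalized reads here. Each of the 3 tables was normalized separately, so levels were compared within a table. A range of levels over both transgenic tables is given as a span only and compares no levels between them. In 10 of the 12 columns of means, the reads of 2 single libraries could be worked back from the mean, and these are called library 1 and library 2. Control values of the GS table could not be resolved this way, and only the authors' mean is given for them. Which of the labelled control libraries entered each mean is not stated, and the control means of the GS and GS/DA tables differ by more than a common scale: Lrrk2 had 2524 and 1335 normalized footprinting reads, and Gria2 6169.5 and 8033. Recovered libraries held 7320795 to 17342962 footprinting reads and 8917952 to 14716381 RNA-Seq reads in the transgenic tables. In the KO table they held 2917805 to 6083739 and 3132517 to 10895952 reads. Library 1 of a genotype and library 1 of its control are those whose differences from library 2 resembled each other. GS libraries were matched to the control libraries of the GS/DA table, as those of the GS table were not recovered. KO libraries were matched to WT libraries only, so library numbers do not link the KO table to the transgenic tables. Such matched libraries are called a library batch here; this was read from the values, as the labels name no batch.

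Markers fitted the labelled tissue. All 10 markers of spiny projection neurons were listed in all 3 tables. Their most abundant transcript, Ppp1r1b, had an authors' mean of 32311 normalized footprinting reads in the non-TG controls of the GS table. Lrrk2 footprinting means followed the genotype labels, at 2524 in controls and 5186 in GS mice, 1335 and 6017 for GS/DA mice, and 545 in WT and 126 in KO mice. Lrrk2 RNA-Seq means followed the labels in the KO table alone, at 1006 in WT and 347 in KO mice. They were 2105 in controls and 1882 in GS mice, and 2897 in controls and 2721 in GS/DA mice.

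Gria2 encodes the AMPA receptor subunit whose edited form makes the channel nearly impermeable to calcium. In the GS table its footprinting level was 5853 and 6084 normalized reads in libraries 1 and 2 of GS mice, against a control mean of 6169.5. In the GS/DA table it was 7585 and 8481 in non-TG controls and 7505 and 7650.1 in GS/DA mice. In the KO table it was 2205 and 1061 in WT and 2711 and 929 in KO mice. Footprinting libraries of a group thus lay close together in the transgenic tables and far apart in the KO table, and the genotypes overlapped in the GS/DA and KO tables. Both GS libraries lay below their control mean. The RNA-Seq level of Gria2 was 5578 and 384 normalized reads in GS mice, against a control mean of 2988. It was 6319 and 1022 in the non-TG controls and 7518 and 747 in GS/DA mice. In the KO table the RNA-Seq levels were 1665 and 2428 in WT and 1763 and 1661 in KO mice. RNA-Seq library 1 was many times above library 2 in every recovered group of the transgenic tables, in control and genotype alike, and in no group of the KO table.

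Gria3, a further AMPA receptor subunit, had a similar split between RNA-Seq libraries. Its footprinting level was 1913 and 1993 normalized reads in GS mice, with a control mean of 1897. In the GS/DA table it was 2173 and 2719 in controls and 2305 and 2440.0 in GS/DA mice. In the KO table it was 772 and 421 in WT and 928 and 371 in KO mice. The genotypes overlapped in both tables with recovered controls. RNA-Seq levels of Gria3 were 1415 and 139 normalized reads in GS mice, with a control mean of 774. They were 1585 and 298 in the controls and 1976 and 218 in GS/DA mice. They were 602 and 851 in WT and 619 and 584 in KO mice. Again library 1 stood far above library 2 for RNA-Seq in the transgenic tables, while the KO libraries lay near the lower WT library.

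Gria1 encodes the AMPA receptor subunit best known for its insertion at synapses during potentiation. Its footprinting level ranged from 2871 to 4403 normalized reads over the 6 recovered libraries of the transgenic tables and from 539.9 to 1236 over the 4 of the KO table. RNA-Seq levels ranged from 3660.3 to 6164 and from 1418 to 2705. Unlike Gria2 and Gria3, Gria1 had similar RNA-Seq levels in library 1 and library 2 of the transgenic tables.

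Grin1 encodes the obligatory subunit of NMDA receptors. Its footprinting level ranged from 7214 to 12086 normalized reads over the 6 libraries of the transgenic tables and from 939.99 to 3720.0 over the 4 of the KO table. RNA-Seq levels ranged from 3460.2 to 10169 and from 1592 to 4469. Here RNA-Seq library 2 was the higher library in every recovered group of the transgenic tables and, matched apart, in those of the KO table.

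Grin2b encodes a glutamate-binding NMDA receptor subunit that prolongs the channel current. Its footprinting level was 1605 and 1903 normalized reads in GS mice, with a control mean of 1723. It was 1816 and 2471 in the controls of the GS/DA table and 1964 and 2493 in GS/DA mice. It was 815 and 432 in WT and 818 and 450.4 in KO mice. Controls and genotypes overlapped in the latter 2 tables and differed little in matched libraries. RNA-Seq levels of Grin2b were 2114 and 287 normalized reads in GS mice, with a control mean of 986. They were 2018 and 416 in the controls and 2287 and 381 in GS/DA mice. They were 859 and 836 in WT and 911 and 586 in KO mice. The gap between RNA-Seq libraries in the transgenic tables was again far wider than that between genotypes.

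Grik2 encodes a kainate receptor subunit that forms channels on its own or with Grik5. Its footprinting level was 779.8 and 919 normalized reads in GS mice, with a control mean of 819. It was 1099.7 and 1139.9 in the controls and 903 and 987 in GS/DA mice. It was 232 and 143 in WT and 314 and 129 in KO mice. The GS/DA libraries lay below their controls without overlap, and the WT libraries lay within the range of the KO libraries. RNA-Seq levels of Grik2 were 1270.0 and 294 normalized reads in GS mice, with a control mean of 814. They were 1665 and 521 in the controls and 1602 and 377 in GS/DA mice. They were 630.1 and 401 in WT and 731 and 379.9 in KO mice. Within each table RNA-Seq library 1 was higher than library 2 in every recovered group, and genotypes overlapped wherever control libraries were recovered.

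Grik5 encodes a high-affinity kainate receptor subunit that needs a partner such as Grik2 to form a channel. Its footprinting level was 737 and 785 normalized reads in GS mice, with a control mean of 792. It was 959.5 and 1079.7 in the controls and 843 and 1110.2 in GS/DA mice. It was 314 and 212 in WT and 289 and 213 in KO mice. Footprinting levels of the genotypes overlapped in the GS/DA and KO tables, and both GS libraries lay below their control mean. RNA-Seq levels of Grik5 were 925 and 6804 normalized reads in GS mice, with a control mean of 4056. They were 955 and 6365 in the controls and 851 and 7322 in GS/DA mice. They were 2180.3 and 1496 in WT and 2136 and 2599.6 in KO mice. In contrast to Gria2, Gria3, Grin2b and Grik2, the high RNA-Seq library of Grik5 was library 2 in the transgenic tables, and its KO range overlapped the WT range.

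**Figure D1:**
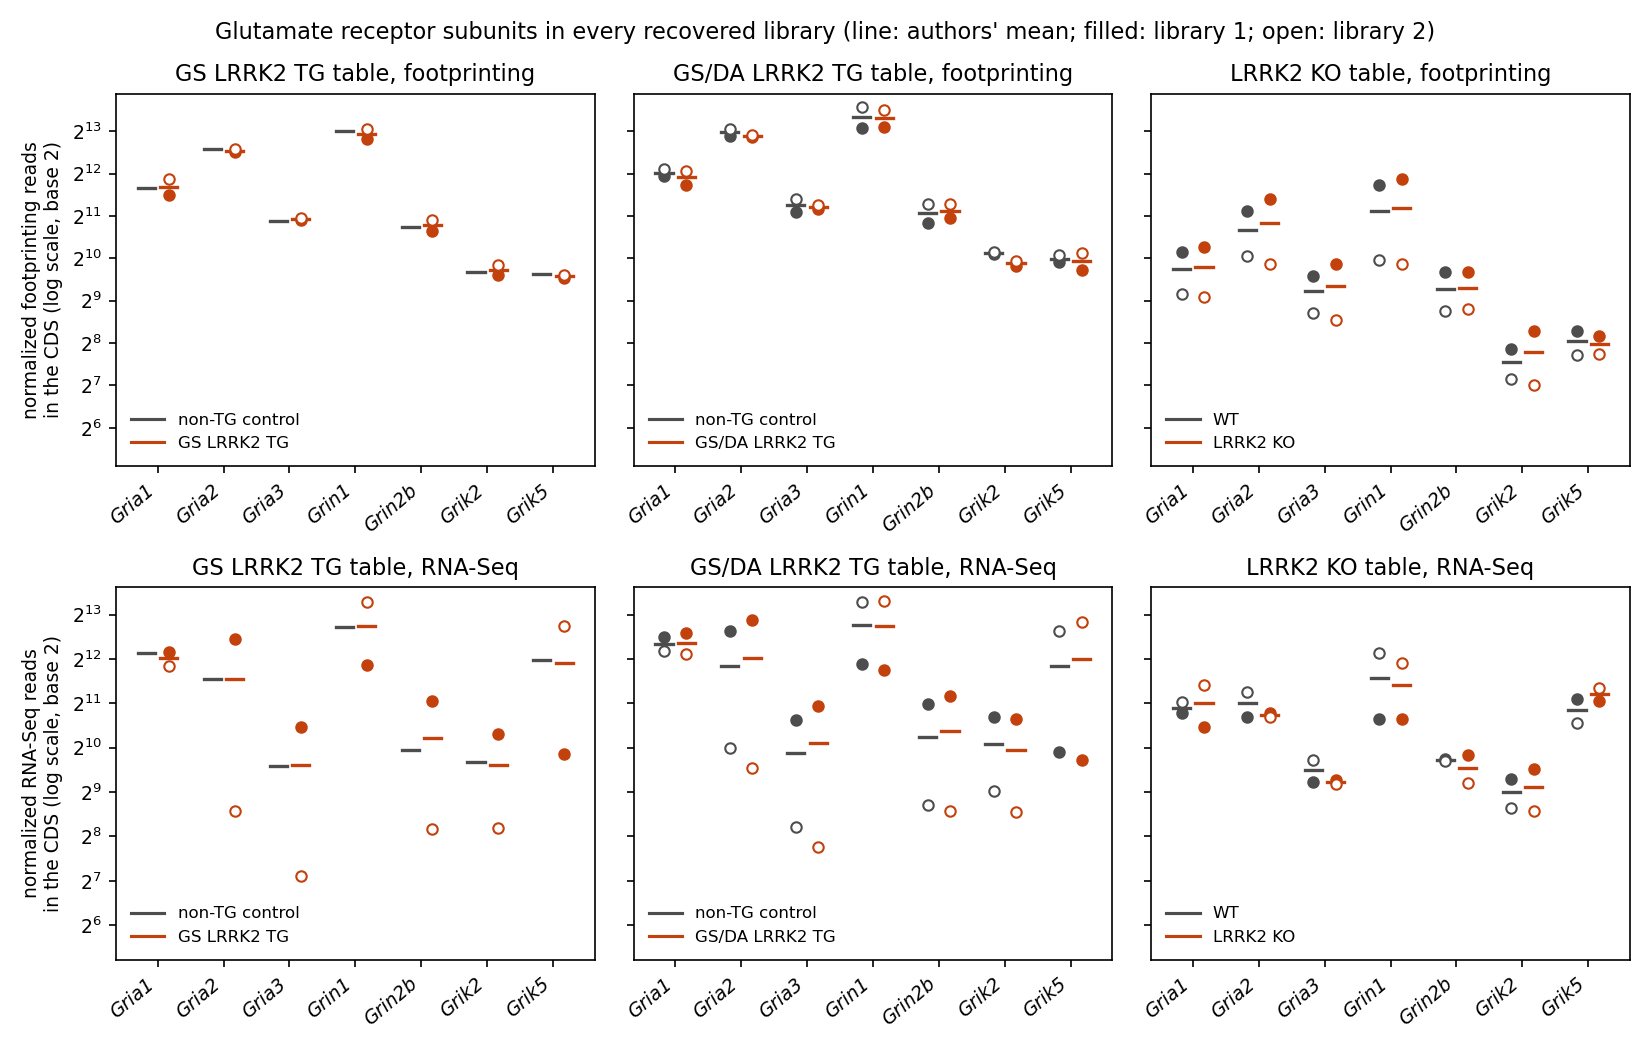
Footprinting (top) and RNA-Seq (bottom) levels of the 7 listed subunits in the 3 tables, in normalized reads in the CDS on a log axis of base 2; lines are authors' means, filled points library 1 and open points library 2, grey for controls and red for genotypes. RNA-Seq libraries of 1 group in the transgenic tables stand far apart, as for Gria2 in GS mice (5578 and 384), while footprinting libraries lie close.

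Across the 3 recovered groups of the transgenic tables, RNA-Seq library 1 exceeded library 2 by 6.19- to 14.5-fold for Gria2, 5.32- to 10.2-fold for Gria3, 4.85- to 7.36-fold for Grin2b and 3.20- to 4.32-fold for Grik2. For Gria1 the fold was 1.24 to 1.39. Library 2 exceeded library 1 by 2.62- to 2.94-fold for Grin1 and by 6.67- to 8.61-fold for Grik5. By contrast, footprinting libraries of the same groups differed by at most 1.39-fold for any of the 7 subunits. The split of the RNA-Seq libraries moved with base composition across transcripts. The log2 ratio of library 1 to library 2 had a Spearman rho between -0.805 and -0.775 with the GC content of the CDS over 6519 to 7025 transcripts. Genes are not independent replicates, so this is a description. RNA-Seq library 1 of the controls in the GS/DA table was named as the library with more reads at low GC content. The other transgenic-table groups were matched to it, so the sign of rho follows from the naming and only its size is a result. CDS GC content was 44.7% for Gria2, 45.3% for Grik2 and 45.5% for Gria3, at percentiles 10.1, 12.0 and 12.6 of the listed transcripts. It was 51.6% for Gria1, 52.9% for Grin2b and 55.6% for Grin1, and 61.6% for Grik5, at percentile 93.8. The subunits of low GC content were thus high in library 1 and Grik5 was high in library 2, whereas Grin2b, of middling GC content, was also high in library 1. The part of base composition in these levels was not tested.

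Levels of different subunits were compared per kilobase (kb) of CDS. In the non-TG controls of the GS table, footprinting levels per kb of the authors' means were 2775 for Grin1, 2232 for Gria2, 1136 for Gria1, 683 for Gria3, 387 for Grin2b, 278 for Grik2 and 269.8 for Grik5. The median of all transcripts there was 379.9. Grin1 thus lay at percentile 90.6 and Gria2 at percentile 88.7, Grin2b was at the median, and both kainate receptor subunits lay below it. Per kb, the steps from Gria2 to Gria1, from Gria1 to Gria3, from Gria3 to Grin2b and from Grin2b to Grik2 each ran downward in 10 of 10 recovered footprinting libraries. Grin1 was above Gria2 in 8 of 10 footprinting libraries, all 6 of the transgenic tables and 2 of 4 of the KO table. Grik2 was above Grik5 in 6 of 10, so these neighbours could not be ordered. RNA-Seq gave no such fixed order per kb. In the controls of the GS table, RNA-Seq levels per kb were 2288 for Grin1, 1582 for Gria1, 1381 for Grik5 and 1081 for Gria2. They were 279 for Gria3, 276 for Grik2 and 222 for Grin2b, below the median of 448. For RNA-Seq, Grin1 was above Gria1 in 6 of 10 libraries, Gria1 above Gria2 in 5 of 10 and Gria2 above Grik5 in 4 of 10.

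Over the 10 recovered libraries together, the make-up of each receptor class varied less in footprints than in RNA. Of the footprinting level per kb summed over the 3 listed AMPA receptor subunits, Gria2 held 50.9 to 57.2% over the 10 recovered libraries. Gria1 held 24.9 to 31.0% and Gria3 15.9 to 20.5% of this sum. In RNA-Seq the share of Gria2 ranged from 9.38 to 48.7%, that of Gria1 from 36.8 to 87.2% and that of Gria3 from 3.37 to 16.4%. Gria2 was therefore the leading AMPA receptor subunit by footprints in every recovered library, and by RNA in some only. The ratio of Grin1 to Grin2b per kb was 6.75 to 7.39 in footprints of the 6 transgenic-table libraries and 3.15 to 6.87 in the 4 KO-table libraries. In RNA-Seq it ran from 2.29 to 52.5 over the 10 libraries. Grik2 held 37.6 to 53.8% of the 2 listed kainate receptor subunits by footprints and 4.13 to 65.2% by RNA-Seq, again per kb. In the KO table alone this share did not vary less in footprints, at 37.6 to 52.0% against 12.7 to 25.4% in RNA-Seq.

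**Figure D2:**
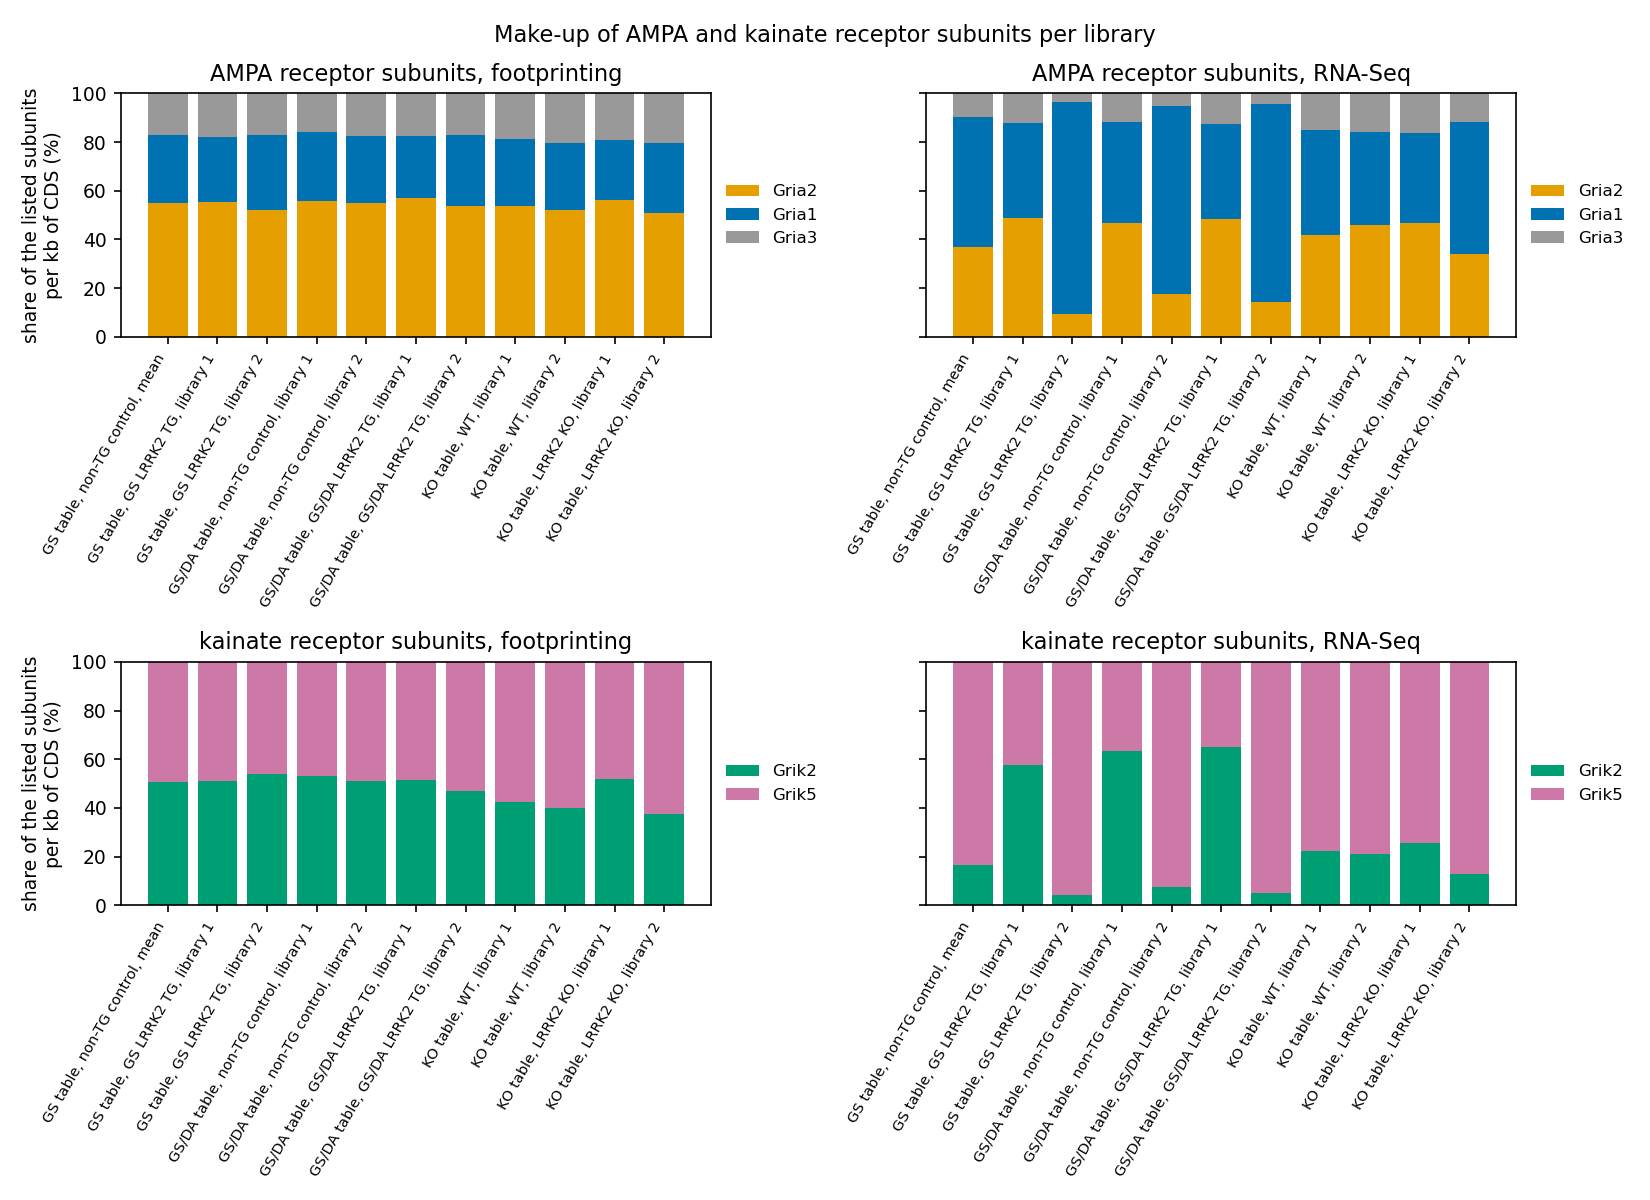
Share (%) of each subunit in the summed level per kb of CDS of the listed AMPA (top) and kainate (bottom) receptor subunits, for footprinting (left) and RNA-Seq (right); each bar is 1 recovered library, or the authors' mean for the controls of the GS table. Gria2 holds 50.9 to 57.2% of the AMPA receptor footprints in the recovered libraries, while its RNA-Seq share is as low as 9.38%.

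Translation efficiency (TE) is the footprinting level of a transcript divided by its RNA-Seq level, given here as log2 of the ratio of authors' means with nothing added. In the controls of the GS table, log2 TE was 1.29 for Gria3, 1.05 for Gria2 and 0.80 for Grin2b. It was 0.28 for Grin1, 0.01 for Grik2 and -0.48 for Gria1. Grik5 had a log2 TE of -2.36. Gria3 and Gria2 thus lay near the top of the table, at percentiles 97.3 and 94.7, and Grik5 near the bottom, at percentile 1.61. In the controls of the GS/DA table, which come from the same group, log2 TE was 1.38 for Gria3, 1.13 for Gria2 and -1.84 for Grik5. In WT mice log2 TE was -0.28 for Gria3, -0.33 for Gria2 and -2.81 for Grik5, at percentiles 72.9, 70.3 and 1.23. The low rank of Grik5 was thus shared by all 3 control means, and the high rank of Gria2 and Gria3 by those of the transgenic tables.

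TE depended on which RNA-Seq library was used. With RNA-Seq library 2 of the transgenic tables, log2 TE of Gria2 in single libraries was 2.89 to 3.99, and with library 1 it was -0.00 to 0.42. For Grik5 it was -3.21 to -2.56 with library 2 and -0.33 to 0.38 with library 1. In the KO table, by contrast, the log2 TE of Grik5 lay between -3.61 and -2.25 in every pairing of footprinting and RNA-Seq libraries. The low TE of Grik5 in the transgenic tables therefore rested on RNA-Seq library 2, and that in the KO table did not rest on any single library.

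The base context of the start codon and the 5′ leader, the part of the mRNA before the start codon, are known to bear on how readily ribosomes initiate. They were read from the NCBIM37 assembly, which is mm9, with its GENCODE annotation. The bases around the start codon are shown because the subunits span such different TE. Capitals mark the start codon, with 9 bases on each side, 5′ to 3′ on the coding strand. The genes lie at chr11:56824889-57143746 (Gria1, plus strand), chr3:80488858-80606713 (Gria2, minus), chrX:38754031-39031778 (Gria3, plus), chr2:25146701-25174707 (Grin1, minus), chr6:135679844-136123529 (Grin2b, minus), chr10:48819266-49508572 (Grik2, minus) and chr7:25794872-25857388 (Grik5, minus).
Gria1: aaaaggaatATGccgtacatc
Gria2: ttcttggaaATGcaaaagatt
Gria3: cagaagaaaATGgggcaaagc
Grin1: ccgaggctcATGagcaccatg
Grin2b: gagctgaagATGaagcccagc
Grik2: ggaaacatcATGaagattatt
Grik5: gggaggaagATGccggctgag

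A purine 3 bases before the start codon, the most conserved feature of the mammalian initiation context, was present in 6 of these 7 sequences, Grin1 being the exception. Of the transcripts of the transgenic tables with a context, 86.4% had it. A G right after the start codon was present in 1 of 7, Gria3, and in 52.4% of those transcripts. An ATG upstream in the 5′ leader was annotated for 6 of 7 subunits, all but Grin1, and for 50.1% of transcripts with a leader. The number of upstream ATGs was 9 in the 763-base leader of Grin2b, 6 in the 425-base leader of Grik2 and 4 in the 407-base leader of Gria2. All 7 leaders, the shortest being the 209 bases of Grin1, were longer than the median of 178 bases. The deposited folding energy of the 5′ leader, which is more negative the more stable the structure, was -405.11 kcal/mol for Grik5 against a median of -91.15. The column gives a minimum across isoforms, so it may belong to another leader than the 1 whose length is given here. Grik5 lay at percentile 4.64 by this measure, and Gria3, with -71.93, was the only 1 of the 7 with a weaker structure than the median. Grin2b had the next most stable leader of the 7, with -213.83 kcal/mol. Its log2 TE was 0.80 in the controls of the GS table and -0.44 in WT mice. In single control libraries of the GS/DA table it was -0.15 to 0.29 with RNA-Seq library 1 and 2.13 to 2.57 with library 2. No link between leader structure and TE was tested.

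The comparison of GS with non-TG control mice asks what kinase-active LRRK2 changes. Differences are log2 of the genotype's authors' mean minus that of the control. Footprinting differences of the 7 subunits lay between -0.06 for Grik5 and 0.05 for Grik2. A size of 0.25 or more, which is 1.19-fold, is counted below. For footprinting 0 of 7 subunits reached it, against 6.53% of all transcripts of the table. For RNA-Seq 1 of 7 did, Grin2b with a difference of 0.28 from 986 to 1200.3 normalized reads, against 19.0% of transcripts. For TE 1 of 7 did, again Grin2b with a difference of -0.26, against 22.3% of transcripts. None of these counts was above the share in the whole table. No test was run within this table, because its control libraries were not recovered, and none was run across tables, because each was normalized separately. The RNA-Seq difference of Grin2b was -1.78 without GS RNA-Seq library 1 and 1.10 without library 2. Its TE difference was 1.81 and -1.07 without these libraries, and -0.14 without footprinting library 1.

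Cell-type markers differed between these groups too. The cortical projection neuron markers Slc17a7, Neurod6 and Tbr1 summed to RNA-Seq means of 1851 in controls and 1071 in GS mice, a log2 difference of -0.79. Their footprinting means were 1612 and 1366, and the GS libraries 2302 and 431. Slc17a7 was the most abundant of these 3, with RNA-Seq means of 1496 and 792. In such bulk tissue, fewer cells of a type and less RNA per cell cannot be told apart. The largest marker difference was that of Ttr, a transcript of the choroid plexus, which borders the striatum. Its footprinting means were 3944 in controls and 723 in GS mice, a difference of -2.45, and its RNA-Seq means 4451 and 1202, a difference of -1.89. The part of these markers in the differences of the subunits was not tested.

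The comparison of GS/DA with non-TG control mice asks what the kinase-dead protein changes, and by the labels it shares its control group with the comparison above. Footprinting differences ran from -0.24 for Grik2 to 0.06 for Grin2b, and 0 of 7 subunits reached a size of 0.25, against 7.02% of transcripts. RNA-Seq differences ran from -0.14 for Grik2 to 0.22 for Gria3, with 0 of 7 reaching it, against 16.8%. For TE 2 of 7 did, Gria2 with -0.26 and Gria3 with -0.27, against 14.6%. TE differences were below 0 for 7 of 7 subunits, with a median of -0.14, whereas the median of all transcripts was -0.05 and 33.5% of transcripts lay above 0. After centring on that median, Grin1 was at 0.04.

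The lower TE of Gria2 and Gria3 did not hold across libraries. In matched libraries the RNA-Seq difference of Gria2 was 0.25 for library 1 and -0.45 for library 2, and its footprinting difference -0.02 and -0.15. Gria3 had RNA-Seq differences of 0.32 and -0.45 and footprinting differences of 0.08 and -0.16. TE differences over the pairings of matched libraries ran from -0.40 to 0.44 for Gria2 and from -0.47 to 0.53 for Gria3, and both signs occurred for 7 of 7 subunits. When libraries were averaged after the log2, the TE difference was 0.02 for Gria2 and 0.03 for Gria3. Without control RNA-Seq library 1 or 2 it was -2.10 or 0.53 for Gria2, and without GS/DA RNA-Seq library 1 or 2 it was 2.21 or -1.12. For Gria3 the same values were -1.93, 0.49, 2.07 and -1.11, besides -0.42 and -0.09 without control footprinting library 1 or 2.

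Grik2 was the subunit whose footprints separated the groups. Its footprinting difference was -0.28 in matched library 1 and -0.21 in library 2. Its RNA-Seq difference was also below 0 in each, at -0.06 and -0.47, although the RNA-Seq groups overlapped. Groups did not overlap for 1 of 7 subunits in footprinting, against 24.2% of transcripts, and for 0 of 7 in RNA-Seq, against 3.38%. The count for footprinting is thus not above the table as a whole. In matched footprinting libraries Gria1 and Gria2 were also lower in both, by differences of -0.21 and -0.03 for Gria1, and Grin2b was higher in both, by 0.11 and 0.01.

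In limma, a linear model per transcript that pools the spread over transcripts, 0 of 7 subunits passed an adjusted p of 0.05 by the Benjamini-Hochberg method in footprinting, RNA-Seq or TE, and 0% of all transcripts did. The fits held 8408, 8497 and 8385 transcripts, and at an unadjusted p under 0.05 limma gave 156, 0 and 0 transcripts and 0 subunits. The p-values measure only the spread between these libraries, which may be technical. On its scale of log2 of normalized reads plus 10, the footprinting difference of Grik2 was -0.24 with an SE of 0.119, and limma gave an unadjusted p of 0.0878 and a Benjamini-Hochberg adjusted p of 1.00. With the library batch as a block, the SE of the footprinting difference of Grik2 was 0.0717, and limma gave an unadjusted p of 0.0121 and a Benjamini-Hochberg adjusted p of 0.221. The limma TE difference was 0.02 for Gria2, with an SE of 1.77 without and 0.252 with the block, and 0.02 for Gria3, with an SE of 1.66 without and 0.271 with it.

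Some markers differed far more than the subunits in this comparison. The same 3 cortical projection neuron markers summed to footprinting levels of 1629.5 and 1056 in control libraries and 4104 and 2574 in GS/DA libraries, a difference of 1.31. For RNA-Seq the sums were 915 and 1965 against 2408 and 4030.5, a difference of 1.16, and Slc17a7, the most abundant, had footprinting means of 833 and 2047. The 10 spiny projection neuron markers had differences of their sum of -0.31 in footprinting and -0.18 in RNA-Seq. The GS/DA libraries thus held more reads of cortical markers, while the subunits had footprinting differences of at most 0.24 in size. With the library batch as a block, limma called the footprinting of these 3 markers higher, with Benjamini-Hochberg adjusted p of 0.00208 for Slc17a7, 0.0144 for Neurod6 and 0.00130 for Tbr1. Ttr had footprinting levels of 1193 and 17056 in control libraries and 5162 and 1137 in GS/DA libraries, a difference of -1.53, and an RNA-Seq difference of -0.88, so 1 control library stood far above the other. The part of the markers in these differences was not tested.

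The comparison of KO with WT mice asks what is lost without LRRK2. Here Gria2 and Gria3 were lower in RNA and Grik5 was higher, by authors' means. Gria2 went from 2046 to 1712 normalized RNA-Seq reads, a difference of -0.26, and Gria3 from 726 to 601, a difference of -0.27. Grik5 went from 1838 to 2368, a difference of 0.37. RNA-Seq differences of 0.25 or more in size were thus seen for 3 of 7 subunits, against 25.4% of all transcripts. Footprinting differences ran from -0.07 for Grik5 to 0.24 for Grik2, and 0 of 7 reached 0.25, against 15.4%. TE differences of that size were seen for 3 of 7, against 33.0%, namely 0.41 for Gria2, 0.40 for Gria3 and -0.43 for Grik5. The remaining subunits had TE differences between -0.06 for Gria1 and 0.24 for Grin1.

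None of these differences separated the libraries. WT and KO libraries were without overlap for 0 of 7 subunits in footprinting, against 12.6% of transcripts, and for 0 of 7 in RNA-Seq, against 14.1%. The matched RNA-Seq differences of Grik5 were -0.03 for library 1 and 0.80 for library 2, so its higher mean came from library 2. Those of Gria2 were 0.08 and -0.55, and those of Gria3 0.04 and -0.54, again with the difference in library 2. Grin1 was lower in both matched RNA-Seq libraries, by -0.01 and -0.22. In footprinting, Grin2b was higher in both, by 0.01 and 0.06, and the other 6 subunits had opposite signs in the pair of libraries.

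Single libraries also set the called values. Without WT RNA-Seq library 1 or 2, the RNA-Seq difference was -0.50 or 0.04 for Gria2, -0.50 or -0.00 for Gria3 and 0.66 or 0.12 for Grik5. It was 0.22 for Grik5 without KO RNA-Seq library 2. The TE difference of Gria2 was 1.04 or -0.02 without WT footprinting library 1 or 2, -0.56 or 0.99 without KO footprinting library 1 or 2, and 0.66 or 0.12 without WT RNA-Seq library 1 or 2. For Gria3 these values were 0.90, 0.02, -0.41, 0.91, 0.62 and 0.12. For Grik5 they were -0.12, -0.69, -0.67, -0.23, -0.73 and -0.19, besides -0.28 without KO RNA-Seq library 2. The lower TE of Grik5 in KO mice thus kept its direction with any 1 library left out, and the higher TE of Gria2 and Gria3 did not. Over the pairings of matched libraries, however, the TE difference of Grik5 ran from -0.92 to 0.03, and both signs occurred for 7 of 7 subunits. Library numbers were given for each assay apart, so which footprinting and RNA-Seq libraries came from the same pool is not known. If those of the same number did, the 2 TE differences would be 0.22 and 0.36 for Gria2, 0.23 and 0.36 for Gria3, 0.13 and 0.12 for Grin1 and -0.09 and -0.79 for Grik5. With the numbers crossed they would be 0.85 and -0.27, 0.81 and -0.22, 0.34 and -0.09, and -0.92 and 0.03. KO footprinting library 1 held more reads than the paper mapped for KO footprinting replicate 1, so it is not that replicate. RNA-Seq library 1 was the deeper library of WT and KO mice, and the paper mapped more RNA-Seq reads for replicate 1 of each. Read depth thus goes with the crossed numbers but does not settle the pairing.

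In limma 0 of 7 subunits passed a Benjamini-Hochberg adjusted p of 0.05 in footprinting, RNA-Seq or TE of this table, and 0% of all transcripts did. The fits held 9532, 9532 and 9529 transcripts, and limma gave 15, 7 and 4 of them an unadjusted p under 0.05, with 0 subunits among them. For Grik5 the limma RNA-Seq difference was 0.38 with an SE of 0.309, and its TE difference was -0.44 with an SE of 0.444. SEs of the TE difference were 0.780 for Gria2 and 0.675 for Gria3. These differences were thus close to their errors or below them. Footprinting reads behind these values were few for some subunits, down to 92 reads of Grik2 in 1 library.

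Markers differed between these groups as well. The cortical marker Slc17a7 had RNA-Seq means of 2696 in WT and 2363 in KO mice, a difference of -0.19, and Tbr1 had 452 and 259, a difference of -0.80. RNA-Seq libraries of Tbr1 overlapped, at 244 and 660 normalized reads in WT and 196 and 322 in KO mice. In footprinting the difference was -0.247 for Slc17a7 and 0.06 for Tbr1. Astrocyte markers, 6 of 6 listed, had RNA-Seq sums of 4415 and 6809.9 in WT and 4208 and 4367 in KO libraries, a difference of -0.39. Slc1a2 was the most abundant, at 2806 and 1759, and the only 1 lower by 0.25 or more. The median difference of these markers was -0.18, and their footprinting sum differed by 0.05. RNA-Seq sums differed by 0.25 for microglia, with 3 of 4 markers listed, and by -0.21 for interneurons. In footprinting these sums differed by 0.29 and 0.05. The sum of the 10 spiny projection neuron markers differed by 0.12 in RNA-Seq and 0.05 in footprinting. In RNA-Seq 3 of them were higher by 0.25 or more, Drd2 by 0.49, Adcy5 by 0.40 and Adora2a by 0.25. Another 2 were lower by that size, Penk with -0.26 and Tac1 with -0.25. Ttr had RNA-Seq levels of 282 and 143 in WT and 34.8 and 173 in KO libraries, a difference of means of -1.03, so it was lower in library 1 alone. Its footprinting difference was 0.12. With the library batch as a block limma called its RNA-Seq level lower, with a Benjamini-Hochberg adjusted p of 4.69e-05, although the matched libraries had opposite signs. In this setting limma gave the same SE of 0.221 to each of the named genes in KO RNA-Seq, so these p-values rest on the spread pooled over transcripts and not on that of the gene itself. The part of these markers in the differences of Gria2, Gria3 and Grik5 was not tested.

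**Figure D3:**
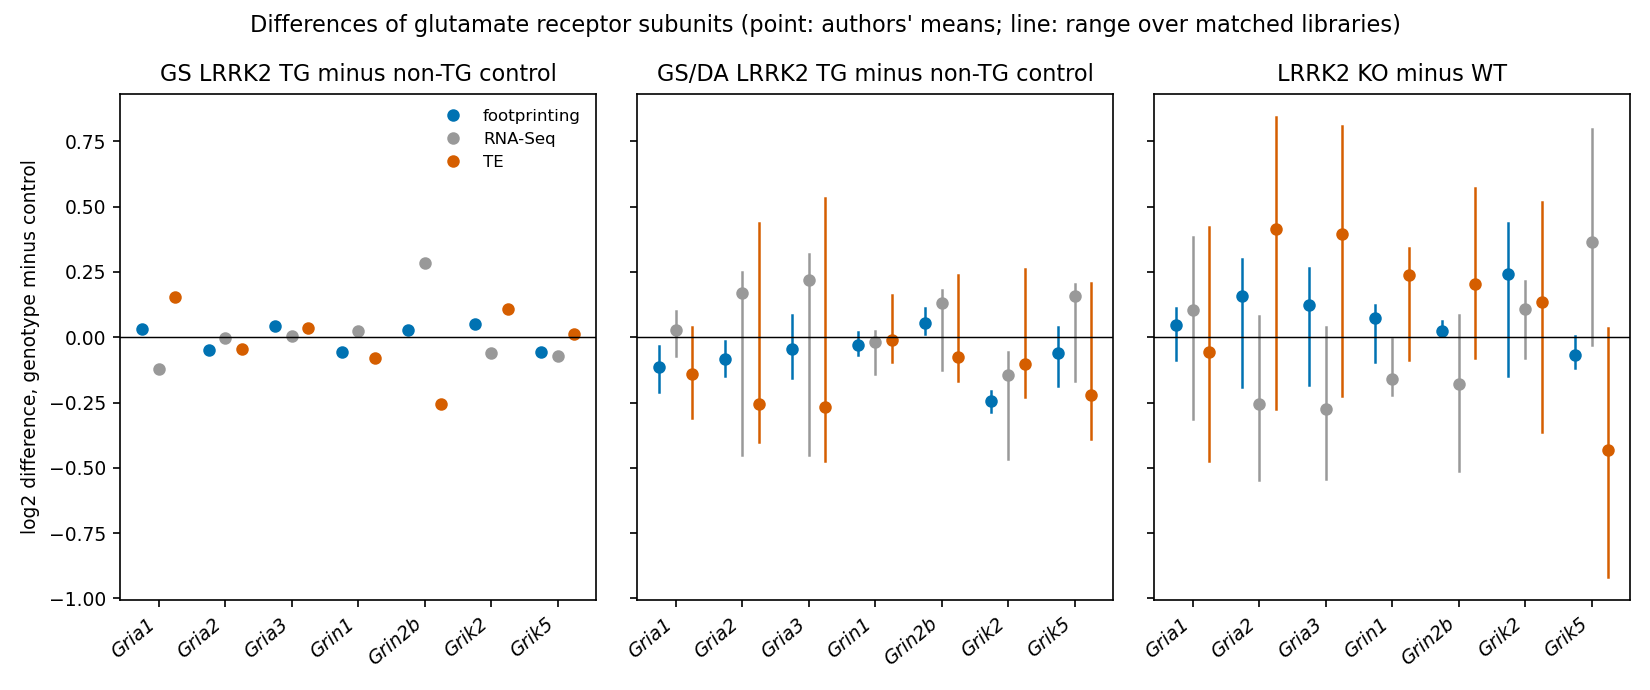
Log2 difference of genotype minus control for the 7 listed subunits in the 3 comparisons, with footprinting in blue, RNA-Seq in grey and TE in orange; points are authors' means and lines the range over matched libraries, which the GS comparison lacks. Lines of TE cross 0 for 7 of 7 subunits in both other comparisons.

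Set side by side, the median difference of the 7 subunits in footprinting was 0.03 for GS, -0.06 for GS/DA and 0.08 for KO mice. For all transcripts these medians were 0.00, -0.01 and 0.02. In RNA-Seq the subunits had medians of -0.00, 0.13 and -0.16, and all transcripts -0.02, 0.06 and 0.01. In TE the medians were 0.01, -0.14 and 0.20, against 0.02, -0.05 and 0.02. No median of the subunits from authors' means was thus as large as 0.25, and the GS and GS/DA values share a control group by the labels. These medians depended on single libraries. With 1 library left out, RNA-Seq medians ran from -1.47 to 0.64 for GS, -1.54 to 0.93 for GS/DA and -0.30 to 0.04 for KO mice. TE medians ran from -0.59 to 1.52, -1.17 to 1.29 and -0.65 to 0.73, and footprinting medians from -0.10 to 0.07, -0.24 to 0.05 and -0.67 to 0.64. No direction of a median therefore held in every case. With libraries averaged after the log2, the GS/DA medians were -0.06 in RNA-Seq and 0.02 in TE.

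Transcripts with TE profiles like those of the subunits were sought by Euclidean distance over 6 log2 TE values, those of both groups of each table, among 8535 transcripts listed in all 3 tables. The nearest was Zmynd11 for Gria1, at a distance of 0.112, Rfx3 for Gria2, at 0.203, and Nr4a3 for Gria3, at 0.225. Next in distance came Chn2 and Mark1, Nfib and Atp8a1, and Qpct and Pcmtd2. The nearest was Dhrs1 for Grin1, at 0.0961, and Runx1t1 for Grin2b, at 0.0760, followed by Mrpl15 and Cox4nb, and by Kdsr and Arsb. The nearest was Usp28 for Grik2, at 0.191, and Extl3 for Grik5, at 0.255, followed by A130022J15Rik and Ptprt, and by Lrp3 and Agap2. Among the subunits themselves, Gria2 and Gria3 were each other's nearest, at 0.538, as were Grin1 and Grin2b, at 0.691, and Gria1 and Grik2, at 0.904. Grik5 stood apart, at 4.39 from its nearest subunit, Gria1. These distances use authors' means, and those of the transgenic tables average RNA-Seq libraries that lay far apart for most subunits. With RNA-Seq library 1 alone, log2 TE of Grik5 in the transgenic tables was -0.33 to 0.38, so its distance rests in part on library 2.

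Other genes of these receptors and their partners were listed in part. Of 8 further ionotropic subunit genes, Grid1 and Grin2c were listed in all 3 tables and Grik4 in the KO table. Grin2c, an NMDA receptor subunit found mainly in the cerebellum and in glia, had a TE difference of -0.77 in KO mice. Its footprinting libraries there had 50.6 and 21.3 normalized reads in WT and 45.9 and 11.2 in KO mice, from 8 to 67 reads, and its RNA-Seq libraries 269 and 232 against 307 and 371. The KO RNA-Seq libraries of Grin2c lay above both WT libraries, while its footprinting libraries overlapped. WT and KO RNA-Seq libraries were without overlap for 14.1% of all transcripts. Of 18 auxiliary and biogenesis proteins, which set the gating and surface number of AMPA and kainate receptors, 14, 14 and 15 were listed, with median TE differences of 0.01, -0.04 and -0.07 in the order GS, GS/DA and KO. Of 13 trafficking and clustering partners, 11, 11 and 13 were listed, with medians of -0.02, -0.04 and -0.16. The median of all transcripts was 0.02 in the KO table. There 3 of the 13 genes of this list were higher by 0.25 or more in TE and 1 was lower, while 33.0% of all transcripts differed by that size. In GS mice 4 of the 14 listed auxiliary and biogenesis genes were higher by that size in TE and 0 were lower, while 22.3% of all transcripts differed by it. The 3 RNA editing enzymes, among them Adarb1, which edits the Gria2 transcript, had medians of -0.03, -0.04 and 0.00. Their members went both ways in KO mice, with TE differences of -0.26 for Adarb1, 0.57 for Adarb2 and 0.00 for Adar. In GS mice the TE difference of Adarb2 was -0.28. As for the whole tables, limma with Benjamini-Hochberg adjustment called 0 genes of these lists. With the library batch as a block, 2 genes of the trafficking and clustering list were called, where 35 of 8408 transcripts were called for GS/DA footprinting and 11 of 9532 for KO RNA-Seq. Nptx1, a neuronal pentraxin that clusters AMPA receptors, was called higher in GS/DA footprinting, with a limma difference of 0.92 and a Benjamini-Hochberg adjusted p of 0.0150. Its footprinting libraries held 847 and 472 normalized reads in controls and 1450.2 and 1001 in GS/DA mice. They did not overlap, as was so for 24.2% of all transcripts in that comparison. The cortical markers Slc17a7, Neurod6 and Tbr1 were called higher in the same libraries, and their part in the Nptx1 difference was not tested. In the same setting, Nptxr, a pentraxin receptor that clusters AMPA receptors, was called lower in KO RNA-Seq, with a limma difference of -1.03 and a Benjamini-Hochberg adjusted p of 0.00257. Its RNA-Seq libraries held 17.2 and 303 normalized reads in WT and 14.6 and 72.8 in KO mice, so the difference lay in library 2, and the p-value rests on the pooled spread as for Ttr.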

How the data were processed

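Striatal ribosome footprinting and RNA-Seq were taken as deposited. The signal values used are the deposited group means: per the labels and methods, the authors aligned reads to mm9 with TopHat2 2.0.11 and Bowtie2 2.2.2, counted reads in the CDS, dropped transcripts with few reads and normalized with DESeq 1.20. The labels also name CASAVA 1.8. The deposited FE column holds the folding energy of the 5′ leader in kcal/mol. The authors' TE, dTE and z columns hold log2 TE per group, its difference between groups and a z-score, and were not used. No per-sample column was left unmapped (0), and the 12 columns are means of groups.

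Means of 2 libraries take values on a lattice set by their size factors, from which the 2 integer read numbers were solved. This resolved 98.1 to 99.9% of means in 10 of the 12 columns, against 0.0628 to 3.53% after adding a constant of 0.0123, and was tested on simulated data. Libraries were matched by the sign of Spearman's rho of library ratios over means above 300 (rho 0.661 to 0.982). limma 3.58.1 in R 4.3.3 was fitted to log2 of normalized reads plus 10, and TE was tested as the interaction of assay and genotype. Python 3.11.15, NumPy 2.4.6, pandas 2.3.3 and matplotlib 3.10.9 were used otherwise. TE of authors' means had a pseudocount of 0. CDS length is the union over isoforms.

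The members and lists were chosen with earlier results of these data known. Genes are named if they are members, genes of the stated lists or markers, or nearest transcripts by distance. The ventral midbrain, labelled for footprinting only, had no columns in the tables and was left out. Alternatives tried were other pseudocounts, scalings, filters, CDS lengths, the library batch as a block and each library left out in turn. Averaging after the log2 and centring on 200 transcripts nearest in CDS GC content were chosen after seeing the data.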

Additional observations from a re-analysis of the deposited data

How the results depend on the processing

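No paired analysis was possible by replicate number because the columns carry no replicate numbers, so a fit with the replicate number as a block was not run. Libraries were matched only by their values, as the library batch, and the matched differences and the fits with a block rest on that batch. limma was not run on the GS table, whose control libraries were not recovered. Of the member differences under other settings, 352 moved by less than the spread between libraries, 3 moved by more and 2, of size 0.25 or more, reversed. The 2 were the TE differences of Gria2 (0.0185) and Gria3 (0.0296) in GS/DA mice, when libraries were averaged after the log2, a setting chosen after seeing the data. The cause was not tested.

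With 1 library left out, 248 values moved by less than the spread between libraries, 22 by more and 10, of size 0.25 or more, reversed, in 7 results. That spread is wide, and many differences below 0.25 in size passed 0.25 in this way. For example, the RNA-Seq difference of Gria2 ran from -2.96 to 0.90 in GS and from -2.30 to 2.02 in GS/DA mice. The ranges of the reversed results were -1.78 to 1.10 for RNA-Seq and -1.07 to 1.81 for TE of Grin2b in GS mice. In GS/DA mice TE ranged from -2.10 to 2.21 for Gria2 and from -1.93 to 2.07 for Gria3. In KO mice the range was -0.50 to 0.0405 for RNA-Seq and -0.56 to 1.04 for TE of Gria2, and -0.41 to 0.91 for TE of Gria3. Leaving out a library leaves 1 in that arm, so library differences enter in full.

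limma called 0 members under every setting that was run. For whole tables, the library batch as a block gave 35 called transcripts for GS/DA footprinting, 15 for KO footprinting and 11 for KO RNA-Seq, against 0 without it. With 1 library left out, GS/DA footprinting gave 2 to 33. With 2 libraries per group, low read numbers in the KO table and RNA-Seq libraries that differ with CDS GC content, small differences of these subunits could have been missed. Gria4, Grin2a and Grin3a, which are not listed, cannot be judged here.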
